A study of Mus musculus with 4 samples.

Results

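The 10 insulin signalling genes described here (*Insr*, *Irs1*, *Irs2*, *Pik3r1*, *Pik3ca*, *Akt1*, *Akt2*, *Foxo1*, *Foxo3* and *Gsk3b*) were chosen for their place in the pathway, with earlier results of these data known. They were found by gene name in the array annotation, where they account for 10 of 36161 gene names and 19 of 55681 probes. Their mRNA was measured in whole liver of C57BL/6J mice labelled as embryonic day 20, in animals of low weight (microsomic, M) and in controls of normal weight (C), on Agilent mouse arrays read in 1 colour. The 4 groups are microsomic females (MF), control females (CF), microsomic males (MM) and control males (CM), which carry no transgene or treatment and differ by birth weight class and sex. The files used here hold 1 array for each group, with the M arrays in one column of the slide and the C arrays in another, so that slide column and M vs C cannot be told apart. The labels do not say how many animals an array stands for, the methods describe independent replicate experiments for each group, which were not analysed here, and they name newborn C57BL/6 N mice where the labels name a fetal stage and C57BL/6J. Fold values compare microsomic with control arrays of the same sex unless other groups are named. There is no spread between animals in what follows, and in whole tissue fewer cells of a type and less RNA per cell cannot be told apart.

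Insulin binds its receptor at the hepatocyte surface, and the activated receptor phosphorylates the adaptor proteins IRS1 and IRS2. These recruit phosphoinositide 3-kinase (PI3K), whose lipid product brings the AKT kinases to the membrane, where they are activated. In liver, AKT phosphorylates FOXO transcription factors, which then leave the nucleus and no longer drive gluconeogenic genes, and it inhibits the kinase GSK3B, which releases glycogen synthase. *Irs2* is also known as a gene that FOXO proteins induce during fasting.

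All levels below are log2 values of the processed signal relative to the 75th percentile of the same array, so that 0 is the signal at that percentile and 1 is 2-fold above it. Levels of different probes are not compared with each other, since probes differ in how well they bind. The number of arrays limits the precision. The measuring error alone was taken from probes printed at 10 spots, whose SD was 0.30 (log2) on MF, 0.31 on CF, 0.27 on MM and 0.33 on CM, which gives an error of 0.43, or 1.35-fold, for a difference between single spots of a pair of arrays. The labelled tissue was checked by its markers: 11 of 11 hepatocyte genes were well above background on every array, with a summed level between 5198 (MM) and 7966 (MF) times the 75th percentile. Markers of heart muscle stood apart on CF, where 10 of 10 were well above background with a summed level of 177, against 0.920 on MF, 1.08 on MM and 2.71 on CM, and those of skeletal muscle were at 16.9 on CF and between 1.37 and 2.41 elsewhere. Markers of granulocytes and macrophages ranged from 970 (CF) to 2092 (MF), erythroid markers from 1471 (MM) to 2788 (CF), those of the exocrine pancreas from 13.7 (MF) to 44.5 (MM), of the endocrine pancreas from 0.412 (MM) to 1.10 (MF) and of the intestine from 129 (CM) to 267 (MF). These values differ between the arrays compared, and their part in the results was not tested.

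The probes are 60 bases long, and those printed here have a reading frame without a stop codon over their whole length. The *Irs2*, *Foxo1* and *Pik3ca* probes carry female differences past 1.5-fold described below, the *Akt2* probe is the member probe with a software flag, and the *Gsk3b* probe crosses exons. Capitals mark runs in which any 5 neighbouring bases are all C or T and 3 or more of them are C (a C/T window), a probe feature that entered one of the alternative ways of processing. The array's own annotation gives the positions (mm9) without naming exon or UTR.
*Irs2* A_66_P102260, chr8:11004490-11004549, minus strand: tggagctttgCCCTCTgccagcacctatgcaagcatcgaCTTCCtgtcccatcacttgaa
*Akt2* A_55_P2066523, chr7:28418226-28418285, plus strand: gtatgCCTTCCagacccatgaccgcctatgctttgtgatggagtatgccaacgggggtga
*Foxo1* A_51_P138044, chr3:52150183-52150242, plus strand: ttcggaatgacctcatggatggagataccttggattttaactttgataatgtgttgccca
*Pik3ca* A_52_P265002, chr3:32360630-32360689, plus strand: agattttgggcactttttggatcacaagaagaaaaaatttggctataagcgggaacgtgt
*Gsk3b* A_51_P514412, chr16:38187987-38191632, plus strand: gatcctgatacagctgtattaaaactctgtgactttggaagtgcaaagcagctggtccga
The *Gsk3b* sequence covers more genomic positions than its 60 bases, so it joins separate stretches of the genome. The *Irs2* probe holds 3 such windows, overlapping ones counted singly, and the *Akt2* probe 2, where 14.7% of all probes hold 3 or more and 25.3% hold 2 or more.

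Among the 18 member probes without a software flag, the M vs C differences were of both signs in both sexes, and the counts past 1.5-fold lay close to those of all probes. In MF vs CF, 3 of 18 were over 1.5-fold higher in MF (*Irs2*, *Akt1* and a *Foxo1* probe), against 19.1% of the 34975 probes compared, and 3 were over 1.5-fold lower (probes of *Insr*, *Pik3ca* and *Foxo3*), against 22.3%. In MM vs CM, 2 of 18 were over 1.5-fold higher in MM (probes of *Insr* and *Foxo1*), against 17.9% of 36587 probes, and 3 were over 1.5-fold lower (a probe of *Irs1* and both of *Foxo3*), against 23.3%. Taking each gene by its brightest probe, 3 of the 10 genes were higher and 2 lower in MF vs CF, where 19.9% and 21.1% of 25538 genes were. In MM vs CM none of the 10 (0) was over 1.5-fold higher and 1 (*Foxo3*) was lower, where 17.7% and 23.1% of 26315 genes were. The difference exceeded the error of repeat spots for 7 of 18 member probes in females and 8 of 18 in males, against 53.7% and 52.0% of all probes compared. The median absolute difference of the member probes was 0.38 in both comparisons, below the 0.44 and 0.45 of all probes. With each gene taken by its brightest probe, the median absolute difference was 0.61 in females and 0.32 in males, against 0.44 of all genes in both. The error of repeat spots was then exceeded by 6 of 10 genes in females and 3 of 10 in males, against 53.3% and 52.0%. By probe the shares are near or below the background, and by gene those of females are near or above it. The values that follow describe single probes on these arrays.

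**Figure D1:**
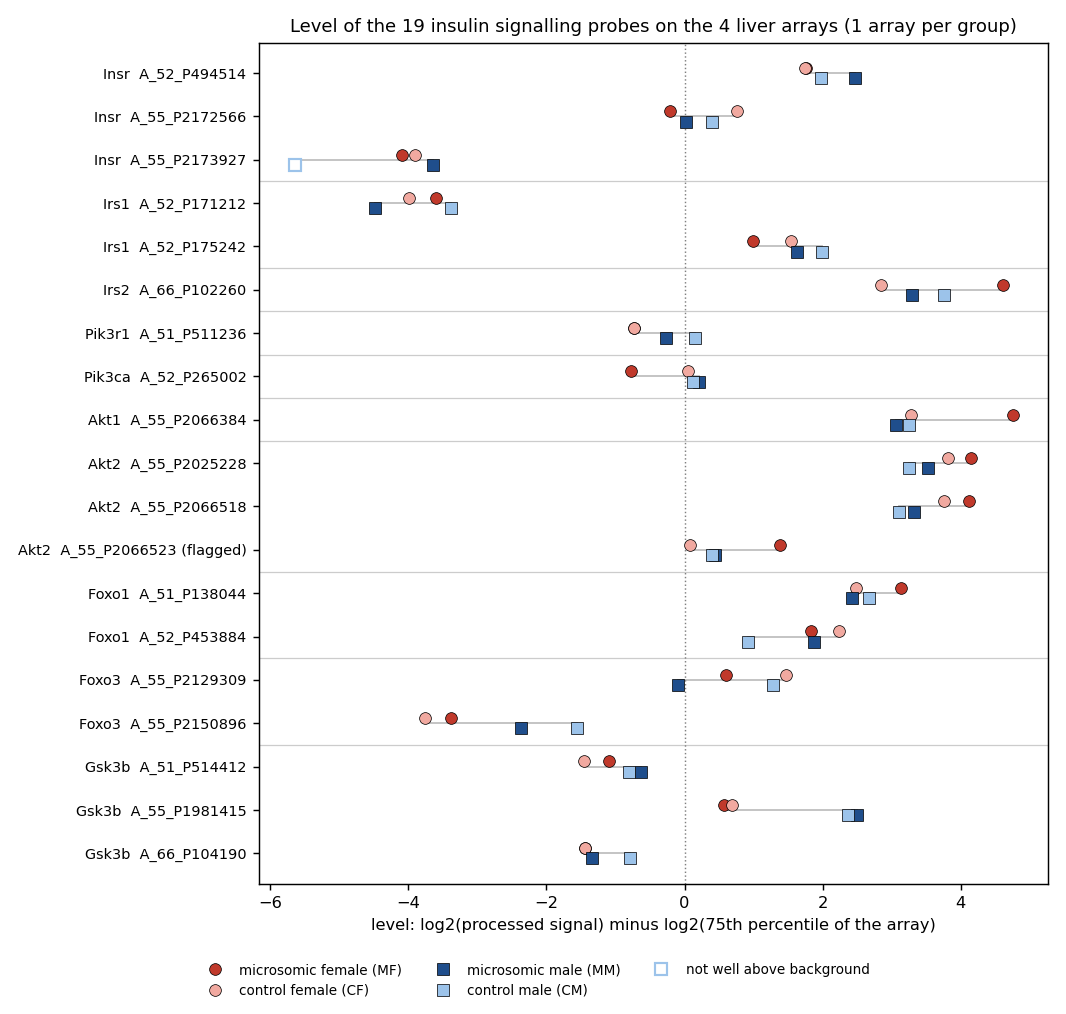
Level of each of the 19 probes (rows, grouped by gene) on the 4 arrays, as log2 of the processed signal minus log2 of the 75th percentile of the array; circles are females, squares males, dark symbols M and light symbols C, and an open square is a signal not well above background. *Irs2* and *Akt1* stand furthest to the right on MF (4.60 and 4.75), and 1 *Gsk3b* probe separates males (2.37 and 2.49) from females (0.56 and 0.68).

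The receptor, *Insr*, had 3 probes on chromosome 8, and they did not move together. The brightest (A_52_P494514, chr8:3151667-3151726, minus strand) was at 1.75 on both MF and CF, 2.47 on MM and 1.97 on CM. Its MF minus CF difference was 0.01 (between -0.39 and 0.41 over the other ways of processing) and its MM minus CM difference 0.50, which was -0.23 with normexp background correction and quantile normalization. Another probe (A_55_P2172566, chr8:3154024-3154083), which holds 4 C/T windows, was at -0.21 on MF, 0.76 on CF, 0.02 on MM and 0.40 on CM. It was 1.96-fold lower in microsomic females, a difference of -0.97 that shrank to -0.12 with normexp correction and quantile normalization, and its MM minus CM difference was -0.38 (0.18 with the deposited values as they are). The third (A_55_P2173927, chr8:3155472-3155531) was dim, at -4.10 on MF, -3.90 on CF and -3.64 on MM, and not well above background on CM. It was therefore at least 2.07-fold higher in microsomic males, and its MF minus CF difference was -0.20 (0.21 with the deposited values). The direction for the receptor thus depended on the probe in males, whereas in females 1 probe was near 0 and the others were lower in MF.

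Of the adaptors, *Irs2* showed the largest M vs C difference of any member probe in females. Its processed signal was 21705 on MF, 4840 on CF, 9071 on MM and 8489 on CM, or 4.60, 2.84, 3.29 and 3.76 on the log2 scale. MF was the highest of the 4 arrays and CF the lowest. *Irs2* was 3.40-fold higher in microsomic females, a difference of 1.76 that exceeded the error of repeat spots and lay at percentile 96.7 of all probes compared. It was between 1.495 (quantile normalization) and 2.17 (deposited values) over the 12 other ways of processing, all past 1.5-fold, and 1.78 with the trend by position on the array removed. The other filters and the mean over probes, which are among the 12, could not change the value of a single bright probe without a flag. In males the difference was -0.46, which turned to 0.10 with the deposited values. Between the sexes, *Irs2* was 2.48-fold higher in MF than in MM and 1.89-fold higher in CM than in CF. A single probe and spot stand for this gene, so no second probe bears on the value.

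*Irs1*, the other main adaptor, was measured by a bright and a dim probe. The bright one (A_52_P175242, chr1:82229692-82229751, minus strand) was at 0.98 on MF, 1.54 on CF, 1.62 on MM and 1.99 on CM, lower in M in each sex by less than 1.5-fold. These differences were -0.56 in females (-0.08 to -0.76 over the other ways of processing) and -0.37 in males, where normexp correction with quantile normalization gave 0.42 and the deposited values 0.19. The dim one (A_52_P171212, chr1:82233564-82233623) was at -3.60, -3.99, -4.48 and -3.38 on MF, CF, MM and CM. It was 2.14-fold lower in microsomic males (between -0.44 and -1.22 over the other ways of processing) and 0.39 higher in microsomic females.

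The PI3K members differed less. *Pik3r1*, the regulatory subunit that binds phosphorylated IRS proteins (A_51_P511236, chr13:102454406-102454465, minus strand), was at -0.74 on MF, -0.73 on CF, -0.27 on MM and 0.15 on CM. Its MF minus CF difference was -0.01, of either sign depending on the processing (-0.08 to 0.39), and its MM minus CM difference was -0.43, or 0.13 with the deposited values. *Pik3ca*, the catalytic subunit, was at -0.77 on MF, 0.05 on CF, 0.21 on MM and 0.12 on CM, so that MF stood below the other arrays, which lay within 0.16 of each other. It was 1.77-fold lower in microsomic females, and the difference kept its sign throughout (-0.42 to -0.83). It was -0.82 as reported and -0.44 with the position trend removed, and the spots around it had a median MF minus CF difference of -0.38. In MM vs CM the difference was 0.09, and -0.07 with normexp correction and quantile normalization.

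The kinase *Akt1* was measured at 2 spots of the same probe (A_55_P2066384, chr12:113892079-113892138, minus strand), which allows a direct look at repeatability. On MF both spots were at 4.75. On CF they were at 2.95 and 3.62, on MM at 2.55 and 3.57, and on CM at 3.48 and 3.02. Both spots were thus higher on MF than on any other array, with MF minus CF differences of 1.80 and 1.14 and a mean of 1.47, or 2.77-fold. This mean kept its sign and exceeded 1.5-fold under each of the 14 alternatives (1.14 to 1.87). Among these, the other filters and the mean over probes could not change it, and 2 were its single spots. In males the spots went in opposite directions, with MM minus CM differences of -0.93 and 0.54, and their mean of -0.19 has no settled sign.

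For *Akt2*, the AKT isoform most closely tied to insulin action in liver and muscle, a pair of probes sharing 53 of their 60 bases served as near repeats. One (A_55_P2025228, chr7:28424412-28424471, plus strand) was at 4.15 on MF, 3.81 on CF, 3.52 on MM and 3.25 on CM, and the other (A_55_P2066518, chr7:28424405-28424464) at 4.11, 3.76, 3.32 and 3.103. Both gave the same order of the arrays after scaling, with the females above the males. In the deposited signals MM was above CF, at 10631 against 9508 for the first probe and 9267 against 9146 for the other. M was higher than C by 0.33 and 0.35 in females, which turned to -0.26 and -0.24 after normexp correction with quantile normalization. In males M was higher by 0.27 and 0.22 (0.06 to 0.83 over both probes and the other ways of processing). All 4 differences were within the error of repeat spots. The third *Akt2* probe (A_55_P2066523), printed above, lies elsewhere in the gene and has an outlier flag of the software on MF. Its levels were 1.39 on MF, 0.08 on CF, 0.44 on MM and 0.39 on CM, and it is not part of any count.

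**Figure D2:**
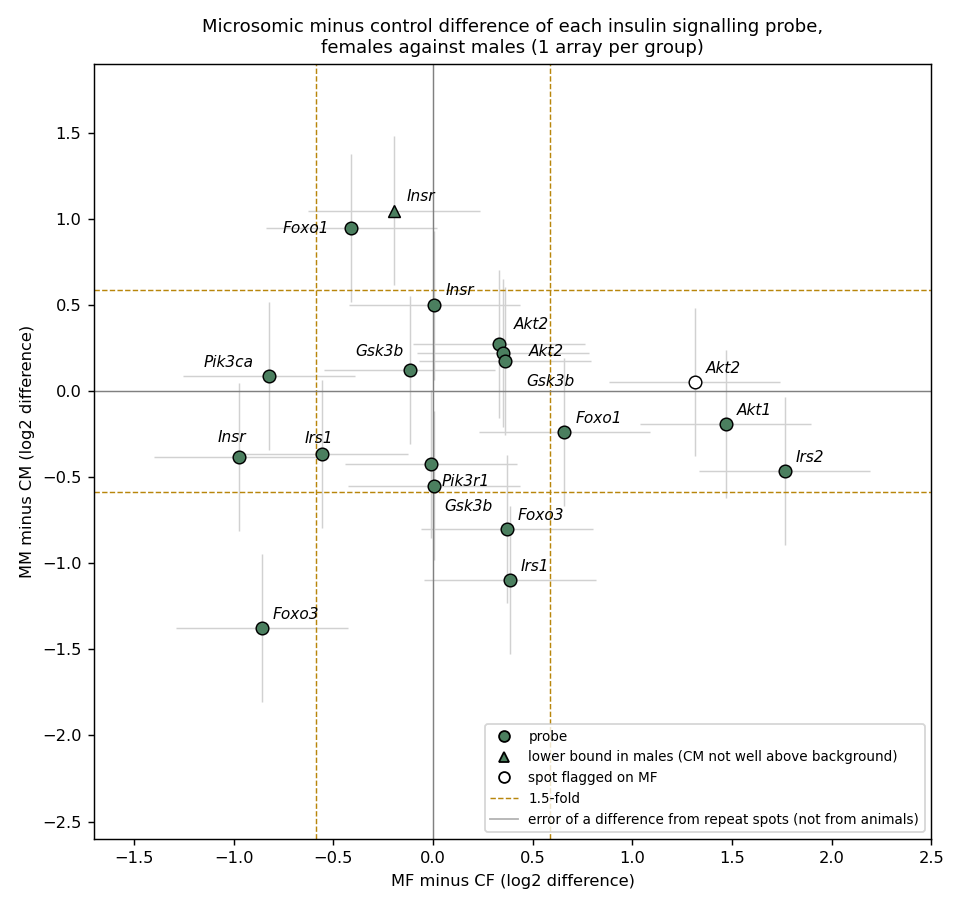
MF minus CF (horizontal) against MM minus CM (vertical) for each probe, as log2 differences, with the error of a difference from repeat spots (0.43) as grey bars, dashed lines at 1.5-fold, a triangle for a lower bound and an open circle for the flagged *Akt2* spot. *Irs2* and *Akt1* lie far to the right and below 0 on the vertical axis, and a *Foxo3* probe is the only one past 1.5-fold in both sexes in the same direction.

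Among the targets of AKT, *Foxo1* had probes that went opposite ways in each sex. The brighter (A_51_P138044, printed above) was at 3.14 on MF, 2.48 on CF, 2.43 on MM and 2.67 on CM, so that MF was highest and the other arrays lay within 0.24 of each other. It was 1.58-fold higher in microsomic females, a difference of 0.66 that dropped to 0.26 with normexp correction and quantile normalization and to 0.13 with the mean over both probes. Its MM minus CM difference was -0.24, which turned to 0.32 with the deposited values and to 0.36 with the mean over both probes. The second probe (A_52_P453884, chr3:52153289-52153348, plus strand) was at 1.83 on MF, 2.24 on CF, 1.87 on MM and 0.93 on CM, with CM the lowest. Its difference was -0.41 in females and 0.95 in males, a 1.93-fold excess in MM that was -0.03 with normexp correction and quantile normalization.

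*Foxo3*, the related transcription factor, was the only member with a probe over 1.5-fold apart in the same direction in both sexes. The probe (A_55_P2129309, chr10:41967288-41967347, minus strand), which the annotation ties to a cDNA clone and not to a RefSeq transcript, was at 0.60 on MF and 1.46 on CF, and at -0.09 on MM and 1.28 on CM. Both M arrays lay below both C arrays. It was 1.81-fold lower in microsomic females (-0.86, and -0.24 to -0.87 over the other ways of processing) and 2.59-fold lower in microsomic males (-1.37, and -0.81 to -1.50). In females it passed 1.5-fold under 9 of 12 alternatives and was -0.51 with the position trend removed, where the spots around it had a median of -0.34. The probe of the RefSeq transcript (A_55_P2150896, chr10:41905610-41905669) did not repeat this in females. It was at -3.39 on MF and -3.76 on CF, a difference of 0.37, and at -2.36 on MM and -1.56 on CM, 1.74-fold lower in MM.

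*Gsk3b* passed 1.5-fold between M and C by none of its 3 probes (0), and 1 of them exceeded the error of repeat spots in males. The probe across exons (A_51_P514412) was at -1.10 on MF, -1.46 on CF, -0.63 on MM and -0.80 on CM, with differences of 0.36 in females and 0.17 in males (-0.04 with the position trend removed). The brightest (A_55_P1981415, chr16:38241177-38241236, plus strand) was at 0.56, 0.68, 2.49 and 2.37, and its M vs C differences were -0.12 and 0.12, of either sign depending on the processing. Between the sexes this probe was higher in males, by 1.69 (log2, 3.22-fold) for CM over CF and by 1.93 for MM over MF. Its deposited signals were 1320 on MF, 1084 on CF, 5198 on MM and 3244 on CM, so that both male arrays were above both female arrays without scaling as well. The other *Gsk3b* probes had smaller differences in the same direction, by 0.65 (A_51_P514412) and 0.66 (A_66_P104190) for CM over CF, and by 0.47 and 0.10 for MM over MF. The sex differences of *Gsk3b* were not tested. The third probe (A_66_P104190, chr16:38246094-38246153) was at -1.44 on both MF and CF, -1.33 on MM and -0.79 on CM, with M vs C differences of 0.00 and -0.55. The male difference exceeded the error of repeat spots, passed 1.5-fold under 4 of 11 alternatives and ranged from -1.19 (normexp correction with quantile normalization) to 0.01 (deposited values).

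Probes of the same member gene often read different M vs C differences. Over the 6 members with several measured probes, the median range between the probes of a gene was 0.96 (log2) in females and 0.73 in males, where it was 0.54 and 0.58 over 5156 and 4843 genes. It was widest for *Foxo3* in females (1.23) and for *Foxo1* in males (1.18), and 0.02 and 0.05 for the overlapping *Akt2* pair. For these genes the direction given by a single probe is therefore a statement about that probe.

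**Figure D3:**
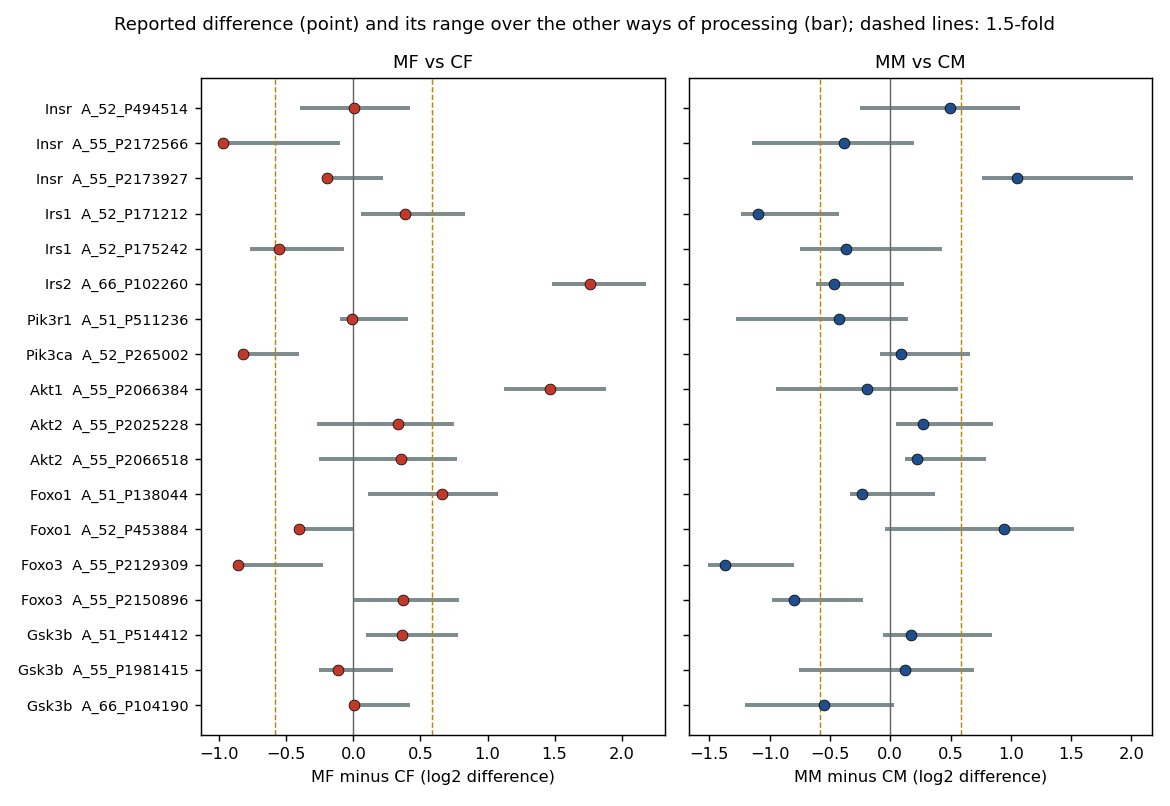
Reported log2 difference of each of the 18 unflagged probes (point) and its lowest and highest value over the other ways of processing (bar), for MF vs CF (left) and MM vs CM (right), with dashed lines at 1.5-fold. In females the bars of *Irs2* (1.495 to 2.17) and *Akt1* (1.14 to 1.87) stay past 1.5-fold, whereas in males most bars reach 0 or cross it.

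The files used here allow a test only when the sexes serve as replicates, fitting weight class together with sex, which leaves 1 residual degree of freedom. In limma this asks which of the 25045 probes well above background on all 4 arrays moved the same way in females and males. It called none of the 17 member probes at an adjusted p under 0.05 (0 calls, background 0% of all probes), and 1 of 17 had an unadjusted p under 0.05, against 4.49% of all probes. That one was the *Foxo3* probe of the cDNA clone, lower in M by 1.12 ± 0.43 (log2, SE) with an unadjusted p of 0.0302 and an adjusted p of 0.998 from limma, and lower in 2 of 2 sexes. For *Irs2* and *Akt1*, which passed 1.5-fold in females only, the mean difference was 0.65 ± 0.57 (adjusted p of 0.998) and 0.64 ± 0.51 (adjusted p of 0.998). The difference between the sexes could not be tested.

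The other genes of the pathway were taken from 8 lists of 173 genes around the members, of which 166 had an unflagged probe. Each was represented by its brightest probe. Like the members, the lists were chosen with earlier results of these data known. In MF vs CF, 36 of 166 were over 1.5-fold higher and 30 lower (19.9% and 21.1% of all genes), and in MM vs CM 30 of 164 were higher and 20 lower (17.7% and 23.1%). The same shares of all genes are the background for the counts of each list below, except where another way of processing is named. Without scaling, where all differences shift by 0.40 in females and by 0.56 in males, 65 were higher and 11 lower in females (35.8% and 9.19% of all genes in that setting) and 97 and 6 in males (44.8% and 12.4%).

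**Figure D4:**
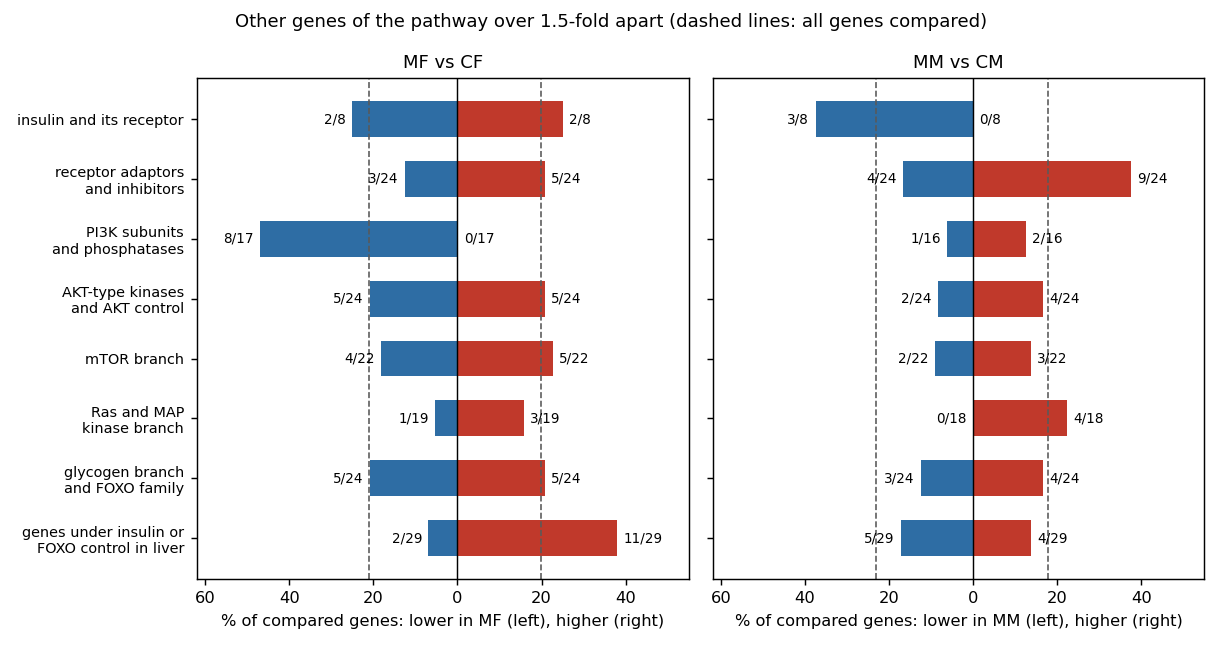
Share of the compared genes of each list that were over 1.5-fold higher (right, red) or lower (left, blue) in M, in females (left panel) and males (right panel), with the counts beside the bars and the share of all genes as dashed lines. In females the PI3K list lies to the left (0 higher and 8 lower of 17) and the genes under insulin or FOXO control to the right (11 higher and 2 lower of 29).

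Upstream of the receptor, the list of insulin and receptor partners had 2 higher and 2 lower of 8 in females and 0 higher and 3 lower of 8 in males. *Enpp1*, a membrane protein that inhibits the receptor, was 2.48-fold higher in microsomic females by its brightest probe, a difference of 1.31 that was 0.48 averaged over its probes. *Cav1*, the coat protein of caveolae, was 2.36-fold lower in MF and 1.70-fold lower in MM, the latter turning to 0.02 (log2) with normexp correction and quantile normalization. CF, the array with the heart muscle markers, had the higher *Cav1* signal of the females, and the part of other tissue in this difference was not tested. The insulin genes, near-identical copies whose probes may not tell them apart, were read by probes with 3 (*Ins2*) and 4 (*Ins1*) C/T windows. *Ins2* was at -0.68 on MF, -1.72 on CF, -2.45 on MM and -1.30 on CM, and *Ins1* was higher by 0.58 (log2) in microsomic females and 3.87-fold lower in microsomic males. The other 6 endocrine pancreas markers summed to 0.298 on MF, 0.157 on CF, 0.175 on MM and 0.285 on CM. Of these 6, 5 were well above background on MF, 2 on CF, 5 on MM and 3 on CM. More of them were thus detected on MM than on CM, although the sum was lower. Exocrine pancreas markers summed to 13.7 on MF, 24.1 on CF, 44.5 on MM and 27.5 on CM, opposite to the insulin genes in each sex. The part of pancreatic tissue in the insulin values was not tested.

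Adaptors and inhibitors of the receptor had 5 higher and 3 lower of 24 in females (19.9% and 21.1% of all genes). In males 9 were higher and 4 lower of 24 (17.7% and 23.1%), with a median of 0.37 against -0.07 for all genes. With the position trend removed, the male counts were 5 and 3 and the median 0.29 against -0.06. The male counts were 2 and 0 at a 2-fold threshold (8.04% and 14.4% of all genes). They were 13 and 3 with normexp correction and quantile normalization (24.4% and 22.7%). *Cbl*, a ubiquitin ligase of the insulin response, was 3.08-fold and *Socs3*, an inhibitor of the receptor and of IRS proteins, 2.75-fold higher in microsomic females. *Socs2*, which restrains growth hormone signalling, was higher in M in both sexes, at 3.09 on MF, 2.13 on CF, 3.89 on MM and 2.67 on CM. *Irs4*, an adaptor with 6 C/T windows in its probe, was at -0.23 on MM and between -3.92 and -3.06 on the other arrays, 7.68-fold higher in microsomic males.

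The PI3K list, of subunits and lipid phosphatases, had 0 higher and 8 lower of 17 in females (19.9% and 21.1% of all genes), with a median of -0.61 against -0.11 for all genes. In males it had 2 higher and 1 lower of 16 (17.7% and 23.1%), with a median of 0.07 against -0.07. Over the alternatives the male median ranged from -0.12 (normexp correction with quantile normalization, all genes -0.08) to 0.63 (deposited values, all genes 0.49). *Pik3ip1*, an inhibitor of the kinase, was 2.95-fold lower and the regulatory subunit *Pik3r5* 2.29-fold lower in microsomic females. The list median stayed negative in females over the alternatives, from -0.21 with the deposited values to -0.62. The medians of all genes in these settings were 0.29 and -0.12. With the deposited values 4 genes of the list were lower and 3 higher, where 9.19% and 35.8% of all genes were. The list median came closest to that of all genes with normexp correction and quantile normalization, at -0.33 against -0.11. Once the position trend was removed, the list median was -0.39 against 0.01 for all genes. In that setting 5 of the list were lower, where 15.4% of all genes were, and 1 was higher. The heart muscle markers of CF and the position trend move with this list in females, and the part of the former was not tested. In males *Pik3cg* was 2.27-fold higher and *Pik3cd* 2.14-fold lower in microsomic males, both of them catalytic subunits known from blood cells.

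Kinases related to AKT and its regulators split evenly in females (5 higher, 5 lower of 24) and had 4 higher and 2 lower of 24 in males. *Trib1*, a pseudokinase of the family that binds AKT, was 3.05-fold higher in microsomic females and 1.86-fold higher in microsomic males. *Trib3*, its relative, was 2.17-fold higher in microsomic males. Its MF minus CF difference was -0.42 (log2), which turned to 0.43 with normexp correction and quantile normalization. Of the kinases that share substrates with AKT, *Sgk2* was 2.34-fold lower in microsomic females and *Sgk1* 1.91-fold lower in microsomic males.

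In the mTOR branch, 5 were higher and 4 lower of 22 in females, and 3 and 2 of 22 in males. *Eif4ebp2*, a translation repressor that mTOR inactivates, was 3.02-fold higher in MF and 1.74-fold higher in MM than in the controls of the same sex. *Ddit4*, a stress-induced inhibitor of mTOR, was at 6.14 on MF, 4.24 on CF, 1.82 on MM and 3.09 on CM, 3.75-fold higher in microsomic females and 2.40-fold lower in microsomic males. *Tsc1*, which restrains mTOR, was 2.04-fold lower in MF, and *Rheb*, which activates it, 2.89-fold higher in MM by its brightest probe (1.53, and 0.51 averaged over its probes). In the Ras and MAP kinase branch, 3 were higher and 1 lower of 19 in females and 4 and 0 of 18 in males, among them *Mapk3* (2.31-fold higher in MF) and *Mapk9* (2.875-fold higher in MM).

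The glycogen branch and FOXO family had 5 higher and 5 lower of 24 in females, and 4 and 3 of 24 in males. *Ppp1r3c*, a subunit that targets the phosphatase of glycogen synthase to glycogen, was at 0.75 on MF and -1.50 on CF, and at 0.81 on MM and -1.77 on CM. It was thus 4.74-fold and 5.95-fold higher in M, with both M arrays above both C arrays, and exceeded 3-fold in females and males under every alternative run. *Gys2*, the liver glycogen synthase, was higher by 0.94 (log2, 1.92-fold) in microsomic females and by 0.59 in microsomic males, just past 1.5-fold.

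Genes under insulin or FOXO control in liver had 11 higher and 2 lower of 29 in females (19.9% and 21.1% of all genes), and 4 higher and 5 lower of 29 in males (17.7% and 23.1%). The female median was 0.22 against -0.11 for all genes. Over the alternatives it went from 0.00 (normexp correction with quantile normalization, all genes -0.11) to 0.62 (deposited values, all genes 0.29). Lipogenic enzymes led in females: *Fasn*, fatty acid synthase, was at -0.36 on MF, -3.53 on CF, -2.53 on MM and -3.38 on CM, 9.01-fold higher in microsomic females and 1.80-fold higher in microsomic males. *Acly*, which makes cytosolic acetyl-CoA, was 8.44-fold higher in microsomic females and differed by 0.35 (log2) in males, and *Acaca*, the acetyl-CoA carboxylase, was 5.49-fold and 1.70-fold higher, the male difference of 0.77 being 0.06 after normexp correction with quantile normalization. *Pdk4*, a kinase of pyruvate dehydrogenase that FOXO proteins induce in fasting, was 1.995-fold lower in microsomic females and 3.28-fold lower in microsomic males. *G6pc*, the last enzyme of glucose production and a FOXO1 target, was at 8.43 on MF, 7.06 on CF, 4.66 on MM and 8.18 on CM; its probe holds 4 C/T windows. It was 11.5-fold lower in microsomic males and 2.58-fold higher in microsomic females, the latter a difference of 1.37 that was 0.27 with normexp correction and quantile normalization.

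Over 164 pathway genes compared in both sexes, 10 were over 1.5-fold higher in M in both sexes, 2 lower in both and 10 opposite between the sexes. The shares over the 23967 genes compared in both were 3.19%, 3.8% and 9.85%. The genes higher in M in both sexes were *Fasn*, *Acaca*, *Ppp1r3c*, *Trib1*, *Eif4ebp2*, *Cited2*, *Socs2*, *Gys2*, *Sh2b2* and *Ptprf*, and those lower were *Pdk4* and *Cav1*. *Cited2*, a coactivator named in the list as a FOXO target, was 2.13-fold and 2.10-fold higher. All of these kept their direction over the alternatives except *Cav1* in males, but not all stayed past 1.5-fold. *Acaca* dropped to 0.06 in males (normexp correction with quantile normalization). *Gys2* dropped to 0.50 in females (quantile normalization) and to 0.19 in males (normexp correction), *Ptprf* to 0.43 and 0.50, *Sh2b2* to 0.46 in females and *Trib1* to 0.53 in males.

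**Figure D5:**
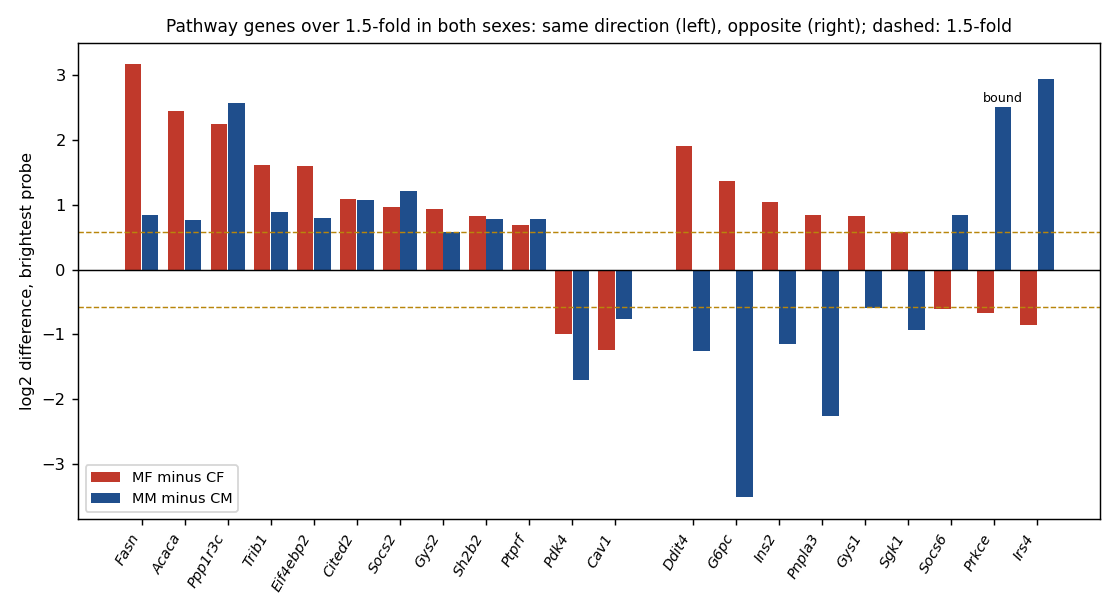
Log2 differences by the brightest probe in females (MF minus CF, red) and males (MM minus CM, blue) for 21 of the 22 pathway genes over 1.5-fold in both sexes, with the same direction on the left and opposite directions on the right, and dashed lines at 1.5-fold; the male value of *Prkce* is a bound. *Ppp1r3c* has the closest pair of large values (2.25 and 2.57) and *G6pc* the widest apart (1.37 and -3.52).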

How the data were processed

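Total RNA of whole liver was hybridised to Agilent mouse gene expression arrays in 1 colour (Cy3), with 1 array for each of MF, CF, MM and CM. Per the file headers, the authors extracted spot intensities with Feature Extraction 10.7.3.1, which subtracted a background surface and removed a multiplicative trend within each array. The deposited value table equals the processed intensity in all 59305 spots, with no scaling between arrays, and annotation is on mm9.

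Each array was scaled to its 75th percentile over non-control spots, which was 893 (MF), 676 (CF), 925 (MM) and 628 (CM), and log2 was taken. A spot that the software marked as an outlier on 1 array was dropped on all 4, and repeat spots were averaged. A comparison needed a signal well above background on either array of the pair, which 56.1% to 65.3% of spots had on a given array. A dim side was set to the lowest level well above background on that array, which makes the difference a bound. Pathway genes were read by the probe with the highest mean level. Since each group has 1 array, differences over 1.5-fold were counted without a test. limma 3.58.1 (R 4.3.3) tested M vs C over both sexes, with Benjamini-Hochberg adjustment, and was checked on simulated data. The simulated differences were far larger than those of the members, so the check does not show what the test can find at their size. Other steps used Python 3.11.15, numpy 2.4.6 and pandas 2.3.3.

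Members and gene lists were chosen with earlier results of these data known. All probes of the members were named. Of each pathway list, the 2 largest differences each way past 1.5-fold in each sex, and genes past it the same way in both sexes, could be named. *Gys1*, *Prkce* and *Socs6* were named after their values were seen. The values of 1 pathway gene are not reported here. *Ceacam1* and *Hras* were not found by name, and *Insrr*, *Grb14*, *Inppl1*, *Sesn2* and *Pck1* had flagged spots only. Alternatives were other scalings, normexp background correction (offset 50) with quantile normalization, other filters, averaging a gene's probes, a 2-fold threshold and removal of trends by position, GC content or C/T windows. Each *Akt1* spot alone was an alternative chosen after seeing the data.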

Additional observations from a re-analysis of the deposited data

Results flagged for a closer look

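Differences between microsomic and control arrays (log2) that had opposite directions in females and males, each past 1.5-fold or, for *Irs2*, past the error of repeat spots, are given here as the female difference minus the male one. They were not tested, since each group has 1 array. *Irs2*, at 1.76 in females and -0.46 in males, had a value of 2.23, and the male side turned to 0.10 with the deposited values. *G6pc* had 4.89 and *Ddit4* 3.17, both higher in microsomic females and lower in microsomic males, and the female side of *G6pc* was 0.27 with normexp correction and quantile normalization. *Pnpla3*, a lipid droplet protein induced by insulin, had 3.11. *Ins2* had 2.19, *Sgk1* 1.52 (its female side was 0.22 with the position trend removed) and *Gys1*, the muscle form of glycogen synthase, 1.42 (its male side was -0.03 with the deposited values). The opposite order was found for *Irs4* at -3.80, whose female side was -0.38 with normexp correction and quantile normalization, and for *Socs6*, an inhibitor of cytokine and insulin signals, at -1.45, whose female side was -0.05 averaged over its probes. *Prkce*, a protein kinase C, was lower by 0.68 in microsomic females and at least 5.67-fold higher in microsomic males. The *Akt2* probe that had a software outlier flag on MF, and that entered no comparison, was 1.31 higher on MF than on CF.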

How the results depend on the processing

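With the deposited values (no scaling), member probes over 1.5-fold were 8 higher and 0 lower in MF vs CF (34.9% and 9.94% of all probes) and 8 higher and 1 lower in MM vs CM (44.5% and 12.9%). Pathway genes were then 65 higher and 11 lower in females (35.8% and 9.19% of all genes) and 97 higher and 6 lower in males (44.8% and 12.4%). Centring on the median gave 53 higher and 11 lower pathway genes in MM vs CM (27.4% and 17.5% of all genes). Normexp correction with quantile normalization gave 7 lower member probes in MM vs CM (22.0% of all probes) and 50 higher and 31 lower pathway genes (24.4% and 22.7% of all genes). It also reversed, in MM vs CM, the differences past 1.5-fold of *Foxo1* (A_52_P453884, -0.028), *Cav1* (0.024) and *Irs3* (0.043). Removing the position trend left 1 lower member probe (16.5% of all probes) and 19 lower pathway genes (15.4% of all genes) in MF vs CF. At a 2-fold threshold, which by construction counts fewer, 0 member probes were lower in MF vs CF (9.68% of all probes) and 1 was higher in MM vs CM (8.16%). Pathway genes were then 20 higher and 10 lower in females (10.8% and 8.95% of all genes) and 13 higher and 8 lower in males (8.04% and 14.4%). With probes well above background on all 4 arrays, where fewer are compared, 1 member probe was higher in MM vs CM (15.9% of all probes). Without scaling, or with centring on the median, all differences of a comparison shift by the same amount. For the other settings, apart from the last 2, the cause was not tested. The other 85 recomputed counts stayed within 1.5 times the reported ones. limma called 0 member probes at an adjusted p under 0.05 in every alternative run, with 0 to 2 at an unadjusted p under 0.05. Scaling moved the median of all probes by up to 0.40 in females and 0.56 in males (deposited values). Signals near background on the C arrays limit dim probes, of which 1 *Insr* probe has only a bound. No paired analysis was possible because each group has 1 array.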
